A study of Mus musculus with 7 samples.

Results

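Cxcl12 and its receptors Cxcr4 and Ackr3 were examined across the hippocampal libraries of this series. The members were the gene records carrying these 3 symbols (Ackr3, formerly Cxcr7, is listed as Ackr3) and all exon bins of the same genes. They made up 3 of 38924 gene records and 21 of 359565 exon bins, with 11 bins in Cxcl12, 5 in Cxcr4 and 5 in Ackr3. Exon bins are the non-overlapping pieces into which a gene's annotated exons are divided. The set was chosen by measured values, since the reads of Cxcl12 bin 6 were known to differ between dentate gyrus and Ammon's horn. Member values for that comparison are therefore a description without a test. The difference between knockout and wild type was not used in the choice and was tested.

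The samples included 3 libraries of Ammon's horn, which holds the CA fields, from wild-type adult mice. A further 3 were of Ammon's horn from adult mice with both copies of Khdrbs3 knocked out. The last was 1 library of dentate gyrus from wild-type adult mice. Khdrbs3 encodes T-STAR, an RNA-binding regulator of splicing. All groups share the same strain history, in which the null allele was backcrossed for 8 generations to C57Bl6, and none received a treatment. RNA was polyadenylated RNA from dissected tissue. The labels do not say whether libraries came from separate or pooled animals, so the p-values rest on library-to-library spread, which may be technical.

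CXCL12, also called SDF-1, is a secreted chemokine that attracts cells carrying CXCR4, a receptor coupled to inhibitory G proteins. ACKR3 binds the same ligand, signals mainly through beta-arrestin and removes the chemokine from the extracellular space. In the hippocampus this axis is known for guiding granule cell precursors and Cajal-Retzius cells and for maintaining progenitors of the dentate gyrus, and endothelial cells, meninges and neurons are known sources of the ligand. Alternative 3′ exons give CXCL12 isoforms that share a core and differ at their C-terminal end, which in the gamma form is a long basic tail that binds heparan sulphate.

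The 3 coding forms of Cxcl12 share their first 3 exons and part after the last base of exon 3. Their coding ends are shown because bins 6 to 10 separate the isoforms by what follows this point. Lower case marks the last 24 shared bases of exon 3 (chr6:117173555-117173578, plus strand, GRCm38, the assembly also called mm10), and capitals mark the bases that each isoform adds up to and including its stop codon.
alpha: gtacctggagaaagctttaaacaaGTAA
beta: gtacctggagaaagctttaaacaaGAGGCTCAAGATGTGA
gamma: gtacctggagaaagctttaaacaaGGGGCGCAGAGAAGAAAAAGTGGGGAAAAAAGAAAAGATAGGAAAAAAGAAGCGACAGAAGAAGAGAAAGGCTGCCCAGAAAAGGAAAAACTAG

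The alpha form reads straight on into the intron, and its 4 own bases (chr6:117173579-117173582) begin with GT and end in the stop codon TAA. Beta skips to a distant exon and adds 16 bases (chr6:117178583-117178598). Gamma enters at a nearer site and adds 94 bases (chr6:117176086-117176179). The forms hold 89, 93 and 119 codons before the stop. GENCODE M21 lists alpha as Cxcl12-202, beta as Cxcl12-203, gamma as Cxcl12-201, and lists a further, non-coding transcript with a retained intron as Cxcl12-204.

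The annotated bins therefore have different meanings. Bins 3, 4 and 5 lie in the exons that all 4 transcripts hold. Bin 6 (chr6:117173579-117175069, 1491 bases, of which 1 is coding) is the alpha 3′ end and is shared only with the retained-intron transcript. Bin 7 (1016 bases) belongs to the retained-intron transcript alone. Bin 9 (chr6:117176128-117178582, 2455 bases) belongs to gamma alone, and bin 10 (chr6:117178583-117181366, 2784 bases) is the 3′ end common to beta and gamma. Bin 8, of 42 bases, lies in gamma and the retained-intron transcript. The bins were rebuilt from GENCODE M21 models, whose bin number and gene ends matched the files for all 3 genes. For Cxcl12 the version of the model differed from that of the files.

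The letters AATAAA, the common polyadenylation signal, stood in the last 50 bases of the annotated alpha, beta and gamma transcripts, 15, 17 and 18 bases before their ends. The retained-intron transcript held them nowhere in that window. Of 58787 protein-coding transcripts, 40.6% held AATAAA in the same window. ATTAAA, found in 11.9% of transcripts, was in none of these 4 windows. The reverse complement TTTATT (5.45% of transcripts) was in the alpha window only, and TTTAAT (4.40%) in none of the 4. The beta and gamma windows overlap almost wholly.

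Gene-table totals lay between 50230733 and 67692326 counts per library and exon-bin totals between 29698245 and 39904606 reads. In Khdrbs3, bin 2 held 808, 1103 and 964 reads in the wild-type Ammon's horn libraries, 506 in dentate gyrus, and 6, 9 and 7 in the knockout. This bin was picked after its values were seen. The other 8 bins held between 420 and 2366 reads in each knockout library and 251 to 1428 in each wild-type Ammon's horn library, and for bins 1 and 4 to 9 all knockout read numbers exceeded all wild-type ones. All 10 granule cell markers were higher and all 8 CA1 markers lower in the library labelled dentate gyrus. Over all genes tested, 11.2% were called higher and 10.9% lower there. Choroid plexus RNA was uneven. Ttr, a transcript typical of choroid plexus, stood at 126, 21.9 and 5.67 CPM (counts scaled to library size with TMM factors) in wild type and 731, 2.84 and 673 CPM in knockout Ammon's horn. It stood at 222 CPM in dentate gyrus. Knockout replicates 1 and 3 therefore stand apart, and values without both are given for each gene.

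The alpha end of Cxcl12 was several-fold higher in dentate gyrus than in any Ammon's horn library, while the gamma stretch and the common beta and gamma end were not. Bin 6 reads numbered 238, 290 and 256 for the 3 wild-type Ammon's horn libraries, 232, 246 and 219 for the knockout libraries, and 1255 for dentate gyrus. Scaled to library size this gave 8.10 ± 0.393 CPM for wild type (SD, n = 3), 7.53 ± 0.347 CPM for knockout (SD, n = 3) and 38.8 CPM for dentate gyrus. The dentate gyrus value was 4.78 times the wild-type mean, and the 6 Ammon's horn libraries lay together between 7.28 and 8.55 CPM.

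The exons common to all isoforms were also higher, by a smaller factor. Counts of bins 3 to 5 summed to 170, 177 and 195 for wild type, 212, 194 and 165 for knockout and 534 for dentate gyrus. That was 5.63 ± 0.680 CPM in wild type (SD, n = 3) against 16.5 CPM in dentate gyrus, a ratio of 2.93. Taken singly, bins 3, 4 and 5 had ratios of 2.97, 2.93 and 2.90. The 3 shared exons thus had nearly the same ratio, which lay between that of the alpha end and those of the other ends. A read that touches several bins appears to be counted in each, so these 3 ratios are not independent.

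The gamma bins did not share the higher level. Counts of bins 8 and 9 summed to 363, 403 and 418 for wild type, 400, 393 and 351 for knockout and 330 for dentate gyrus. This was 12.3 ± 1.07 CPM (SD, n = 3) against 10.2 CPM in dentate gyrus, 0.830 times the wild-type mean and below all 6 Ammon's horn libraries, which lay between 11.1 and 13.0 CPM. Bin 10, common to beta and gamma, had 453, 517 and 485 reads for wild type, 576, 444 and 511 for knockout and 436 for dentate gyrus. Its ratio of dentate gyrus to wild type was 0.893 (13.5 against 15.1 ± 1.07 CPM, SD, n = 3), and the dentate gyrus value lay within the range of the Ammon's horn libraries, 13.1 to 18.5 CPM.

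**Figure D1:**
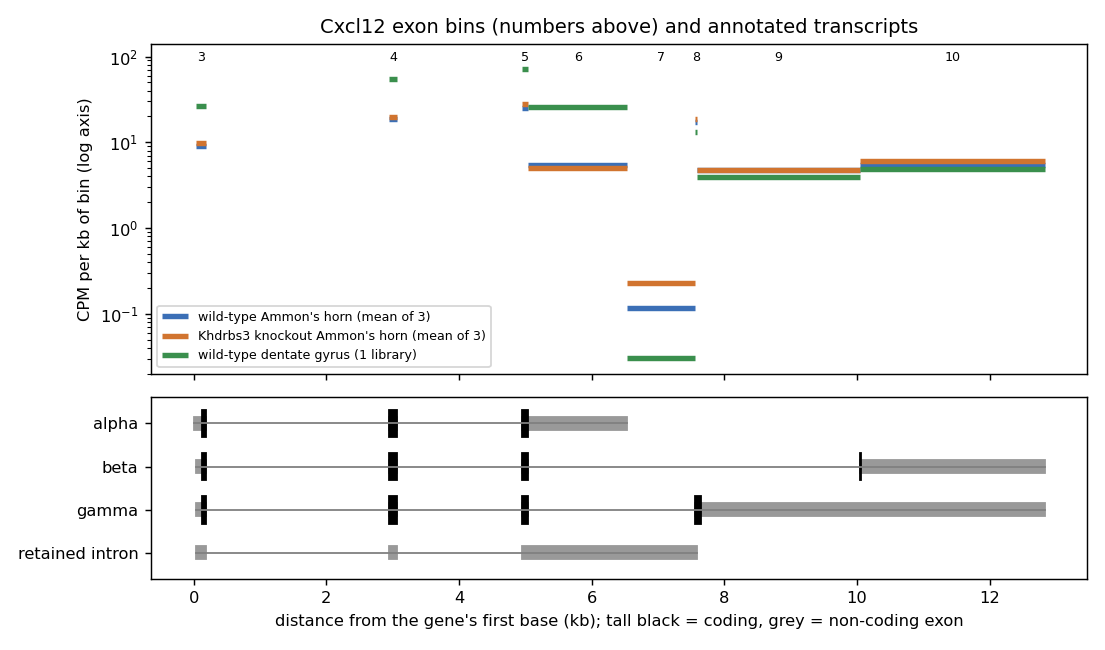
Level of each Cxcl12 exon bin of 40 or more bases, in CPM per kb of bin on a log axis, along the gene, with the 4 annotated transcripts below; horizontal lines are the mean of 3 libraries in wild-type and knockout Ammon's horn and the 1 dentate gyrus library. Over bin 6 the dentate gyrus line stands at 26.0 CPM per kb against 5.43 in wild-type Ammon's horn, while over bins 9 and 10 the 3 lines run close together.

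**Figure D2:**
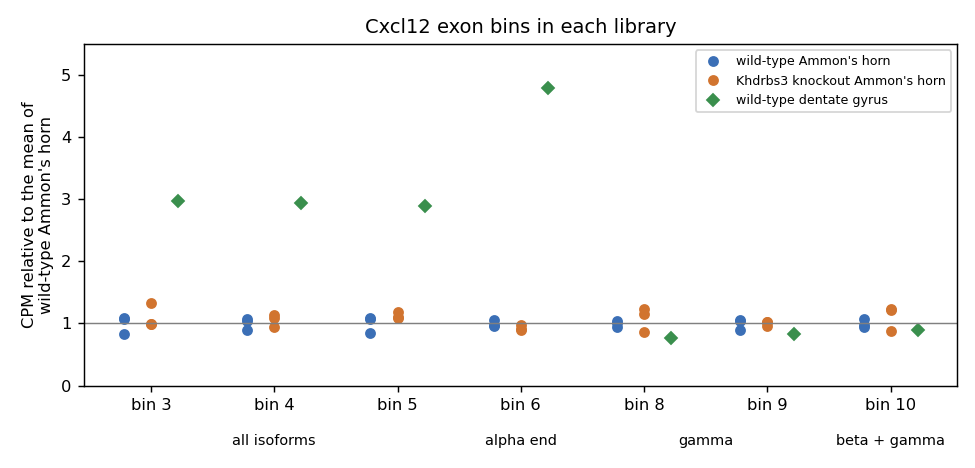
CPM of 7 Cxcl12 exon bins in each library, divided by the mean of the 3 wild-type Ammon's horn libraries, with 1 point per library and a grey line at 1. The dentate gyrus points lie near 2.9 to 3.0 in bins 3 to 5, at 4.78 in bin 6 and between 0.768 and 0.893 in bins 8 to 10.

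As a share of all exon-bin reads of Cxcl12, bin 6 took 19.2%, 20.7% and 18.6% for wild type and 16.1%, 19.1% and 17.4% for knockout. In dentate gyrus it took 48.3% (exact Clopper-Pearson 95% interval 46.4 to 50.2%). Bin 9 took 27.8% ± 0.836 in wild type (SD, n = 3) and 12.01% in dentate gyrus (10.8 to 13.3%), and bin 10 took 36.3% ± 0.876 (SD, n = 3) and 16.8% (15.4 to 18.3%). These intervals cover counting error only. A read that touches several bins appears to be counted in each: bin 2, of only 3 bases, held 4, 5 and 8 reads in wild type, the same numbers as the 39 bases of bin 1 beside it. Shares are therefore shares of bin counts, and short bins have raised levels per base. The intervals take bin counts as independent and may be too narrow.

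Relative to the whole gene, in the fit over 169072 bins, the usage log2 fold change of bin 6 in dentate gyrus was 1.32 (SE 0.12). It was -1.31 (SE 0.39) for bin 8, -1.20 (SE 0.14) for bin 9 and -1.10 (SE 0.14) for bin 10. Bins 3, 4 and 5 had values of 0.64, 0.62 and 0.60. Usage measures a bin against the mean of its gene, so the negative values of bins 8 to 10 accompany levels that were near those of Ammon's horn. Over all bins of this fit, 0.186% passed an adjusted p of 0.05 with higher usage and 0.0266% with lower usage. Bin 6 was part of the choice of this set, so its place among all bins is not given. The single dentate gyrus library is unreplicated, and the fit takes its spread from Ammon's horn.

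The balance of ends was set out per base, to allow for bin length. The alpha end as a percentage of the alpha end plus the common beta and gamma end was 49.5%, 51.2% and 49.6% in wild-type Ammon's horn. The ends were thus near parity there. It was 84.3% in dentate gyrus, and no Ammon's horn library of either genotype exceeded 51.2%. The gamma-only bin 9 over the common bin 10, per base, was 0.856, 0.829 and 0.921 for wild type and 0.811 for dentate gyrus. Read density in the stretch that only gamma holds was thus most of that in the end it shares with beta, in both regions.

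In the knockout neither balance passed the test. The alpha percentage was 42.9%, 50.8% and 44.5% in the 3 knockout libraries, a mean of 46.1% ± 4.20 against 50.1% ± 0.913 (SD, n = 3 each), with an exact two-sided permutation p = 0.3. The ratio of bin 9 to bin 10 was 0.732, 0.950 and 0.728 (exact two-sided permutation p = 0.4). After Benjamini-Hochberg adjustment over the 2 measures both p-values were 0.4 (exact permutation tests), and 3 against 3 libraries cannot give a p below 0.1. The knockout libraries with the lower values in both measures were replicates 1 and 3, those with Ttr at 731 and 673 CPM, and replicate 2, with Ttr at 2.84, lay inside the wild-type range for the alpha percentage. Wild-type replicate 1, with Ttr at 126, had 49.5%, and dentate gyrus, with Ttr at 222, had 84.3%. The part of choroid plexus RNA in these values was not tested.

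**Figure D3:**
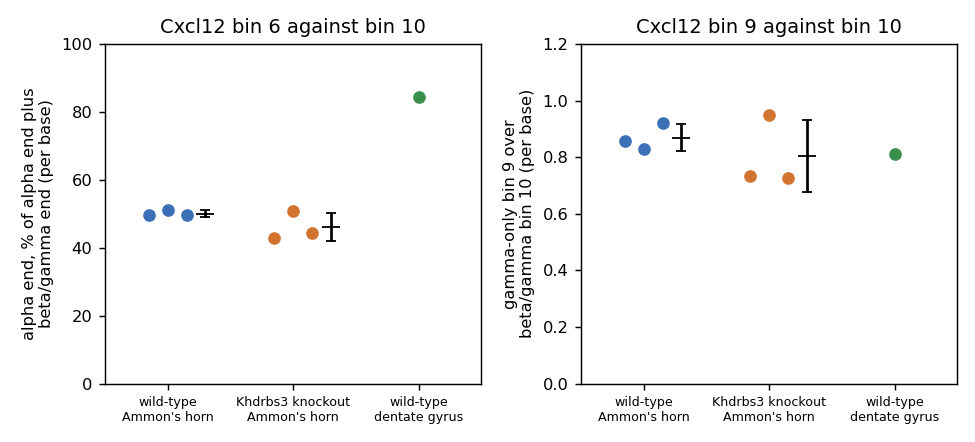
Left, alpha end (bin 6) as a percentage of bins 6 and 10, per base; right, gamma-only bin 9 over bin 10, per base, in each library (points), with mean and SD of 3 libraries (black). The dentate gyrus point at 84.3% lies far above the 6 Ammon's horn points, and on the right it lies within their range of 0.728 to 0.950.

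The remaining Cxcl12 bins held few reads. Bin 7, the intron between the alpha end and the gamma exon, had 5, 2 and 4 reads in wild type, 7, 4 and 10 in the knockout and 1 in dentate gyrus. Per kb this was 0.117 ± 0.0614 CPM in wild type (SD, n = 3), far below the 5.43 CPM per kb of bin 6, so reads of the retained-intron transcript were few in every library. The upstream bins 1 and 2 held 19 and 23 reads in dentate gyrus and at most 8 in any Ammon's horn library. Bin 11, a single base, held none. Of the 11 Cxcl12 bins, 7 passed the minimum of 10 reads in at least 3 libraries.

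At the level of the whole gene, Cxcl12 (ENSMUSG00000061353.5, chr6:117168535-117181367, plus strand) stood at 40.3, 35.3 and 39.3 CPM for wild type, 41.0, 34.9 and 42.9 CPM for knockout and 69.1 CPM for dentate gyrus (95% Poisson interval 67.0 to 71.2, counting error only). The dentate gyrus level was higher than in every Ammon's horn library for each of the 3 genes. Of all genes, 35.9% were above the 3 wild-type libraries, a looser criterion, and the share above the knockout libraries too was not computed. The Cxcl12 level in dentate gyrus was 1.80 times the wild-type mean and 1.61 times the highest Ammon's horn library (log2 fold change 0.85, SE 0.11, no test). Whole-gene counts also depend on isoform length, and alpha is the shortest coding form (1878 bases against 3132 and 5627). The exons common to all isoforms had a ratio of 2.93, so the 1.80 does not measure the change in transcript numbers. The Poisson intervals for the 3 genes take gene-table counts as independent. These counts were 1.55 to 1.70 times the exon-bin sums, so the intervals may be too narrow. In bulk tissue, more cells of a type and more RNA per cell cannot be told apart.

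Cxcr4 (ENSMUSG00000045382.6, chr1:128588199-128592293, minus strand), the signalling receptor, had few counts. It stood at 1.70, 1.91 and 2.18 CPM for wild type, 1.63, 1.28 and 1.93 CPM for knockout and 2.52 CPM for dentate gyrus (95% Poisson interval 2.15 to 2.95, counting error only). The dentate gyrus was 1.31 times the wild-type mean (log2 fold change 0.39, SE 0.25, no test). Its interval, from 157 counts, included the value of the highest Ammon's horn library.

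Ackr3 (ENSMUSG00000044337.5, chr1:90203980-90216751, plus strand), the scavenging receptor, stood at 9.95, 13.0 and 13.5 CPM for wild type, 9.72, 11.3 and 9.96 CPM for knockout and 15.3 CPM for dentate gyrus (95% Poisson interval 14.3 to 16.3, counting error only). The dentate gyrus was 1.26 times the wild-type mean (log2 fold change 0.33, SE 0.16, no test). Wild-type replicate 1 was low, near the knockout libraries, and the wild-type spread was 1.91 CPM (SD, n = 3).

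**Figure D4:**
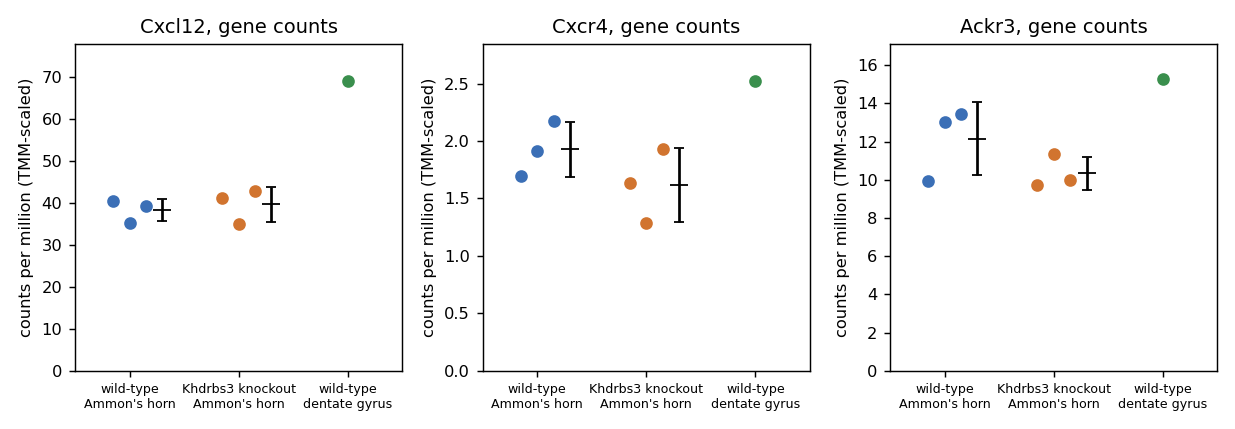
Gene counts of Cxcl12, Cxcr4 and Ackr3 in each library (points, TMM-scaled CPM, each axis from 0), with mean and SD of 3 libraries (black). The dentate gyrus point is the highest in each panel, by 1.61 times over the next library for Cxcl12. For Cxcr4 and Ackr3 it is the highest by 1.16 and 1.13 times. Counts are not adjusted for isoform length.

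Levels of different genes were compared per length, as exon-bin CPM per kb of annotated exon. For Cxcl12 this length was 8176 bases, while the alpha, beta and gamma transcripts hold 1878, 3132 and 5627 bases. For Ackr3 it was 3348 bases, near the 3065 of Ackr3-201. The scale therefore lowers Cxcl12 relative to Ackr3, by an amount that depends on the mix of isoforms, and does not measure transcript numbers. In wild-type Ammon's horn Cxcl12 stood at 5.08 ± 0.372, Ackr3 at 4.07 ± 0.522 and Cxcr4 at 1.31 ± 0.121 CPM per kb (SD, n = 3 each). In dentate gyrus the order was the same, at 9.81, 4.90 and 1.76 CPM per kb. Cxcl12 over Ackr3 on this scale was 1.57, 1.07 and 1.18 for wild type, 1.68, 1.24 and 1.77 for knockout and 2.004 for dentate gyrus. The wild-type libraries of this pair did not overlap (4.69 to 5.43 and 3.46 to 4.40 CPM per kb), and Cxcr4 lay below both. Ackr3 exceeded Cxcr4 in every library, by between 2.66 and 4.60 times.

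The knockout comparison asks whether knockout of Khdrbs3 alters these transcripts, and no member passed the test. Among 22830 genes tested, 0.0745% passed an adjusted p of 0.05 and 8.38% had an unadjusted p under 0.05. On the log2 scale Cxcl12 differed by 0.05 (SE 0.08) with an adjusted p = 0.915 in edgeR's quasi-likelihood test. Cxcr4 differed by -0.26 (SE 0.19, adjusted p = 0.761) and Ackr3 by -0.23 (SE 0.12, adjusted p = 0.634) in the same edgeR test. With single libraries left out, Cxcr4 ranged from -0.41 (without knockout replicate 3) to -0.12 (without knockout replicate 2). Ackr3 ranged from -0.35 (without wild-type replicate 1) to -0.15 (without wild-type replicate 3). Unadjusted p-values were 0.567, 0.202 and 0.0765 (edgeR). The genotypes overlapped for 3 of 3 genes, whereas 6.44% of all genes were lower and 6.81% higher in the knockout with no overlap. Without both choroid-rich knockout libraries, which leaves 1 knockout library assumed to vary like the others, the values were -0.13, -0.59 and -0.10.

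Exon usage of the 3 genes did not pass in the knockout either. Of 166154 bins tested, 0.00301% passed an adjusted p of 0.05, and 0 of the 12 member bins tested did. By unadjusted p under 0.05 (1.72% of all bins) 0 of 12 passed, with edgeR's diffSpliceDGE. The smallest unadjusted p was that of Cxcl12 bin 6 (0.139), whose usage differed by -0.16 on the log2 scale (SE 0.11) with an adjusted p = 0.999992 (edgeR). Cxcl12 bins 9 and 10 had values of -0.05 (SE 0.10) and 0.09 (SE 0.09), and the other 9 bins lay between -0.13 and 0.12. The 12 bins tested of the 21 were 7 of Cxcl12, 2 of Cxcr4 and 3 of Ackr3, and the rest held too few reads.

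Cxcr4 has 2 annotated forms that differ at the end of the first exon, where Cxcr4-201 carries 6 more coding bases than Cxcr4-202. They are shown because bin 3 holds only those bases. Capitals mark the extra bases (bin 3, chr1:128592189-128592194, minus strand, GRCm38). The first 12 bases of exon 2 follow in lower case.
longer form: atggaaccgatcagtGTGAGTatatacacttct
shorter form: atggaaccgatcagtatatacacttct

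Reads that touched the extra bases were few and nearly as many as those in the shared first exon. Over all 7 libraries bin 3 held 26 reads and the neighbouring 96 bases of bin 4, which both forms share, held 27. In dentate gyrus the numbers were 6 and 7, and no Ammon's horn library held more than 6 in either bin. The rest of the coding sequence lies in bins 1 and 2, which held 33 and 57 reads in dentate gyrus and between 19 and 48 in Ammon's horn. Bin 2 took 51.8% ± 4.92 of the gene's bin reads for wild type (SD, n = 3) and 55.3% in dentate gyrus (95% Clopper-Pearson interval 45.2 to 65.1%). Bin 5, of 3 bases, held none.

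Ackr3 reads lay almost wholly in the main transcript. Bin 5 (chr1:90213834-90216751, 2918 bases), which holds nearly all of the coding sequence, took 81.3% ± 1.06 of the gene's bin reads in wild-type Ammon's horn, 81.4% ± 2.55 in the knockout (SD, n = 3 each) and 84.2% in dentate gyrus (95% Clopper-Pearson interval 80.8 to 87.2%). Bin 3, an alternative non-coding exon of 283 bases found only in Ackr3-202, held 7 reads over all 7 libraries and no more than 3 in any. Bin 2, in the first exon and common to both forms, held 245, and the 26 bases of bin 1 before it held 2. Dentate gyrus usage of bins 2, 4 and 5 differed from wild-type Ammon's horn by log2 values of -0.31 (SE 0.29), -0.17 (SE 0.27) and 0.04 (SE 0.13). For Cxcr4 bins 1 and 2 the values were -0.17 (SE 0.31) and 0.10 (SE 0.25), each within its SE of 0.

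Other genes of the axis were followed through 3 lists, with the members themselves left out. In the knockout 0 of 66 tested genes of these lists passed, against 0.0745% of all genes. In dentate gyrus, 7 of 73 tested genes were higher and 10 lower, where 11.2% of all genes tested were higher and 10.9% lower. The lists differed, as most of the called genes were in the relay list. With 1 dentate gyrus library, each such call and its p use the spread of the Ammon's horn libraries and have no replicate check in dentate gyrus.

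Among 12 tested alternative ligands and modifiers of CXCL12, 2 were higher and 1 lower in dentate gyrus. Of all genes tested, 11.2% were higher and 10.9% lower. The median log2 fold change was -0.16 against -0.01 over all genes. With exon-bin sums, 2 genes of this list were called instead of 3. Cd74, the receptor chain for the cytokine MIF, was higher by 1.21 on the log2 scale (SE 0.30, adjusted p = 0.0151, edgeR), though it was low, at 4.70 against 2.04 ± 0.350 CPM (SD, n = 3). Sdc2, a heparan sulphate proteoglycan, was higher by 0.28 (SE 0.09, edgeR adjusted p = 0.0438). Mif itself, a cytokine that also binds CXCR4 and ACKR3, was lower, at -0.49 on the log2 scale (SE 0.10, adjusted p = 0.0054, edgeR), from 75.1 ± 2.61 to 53.3 CPM (SD, n = 3).

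Of 30 genes that relay the receptor signal, 5 were higher and 8 lower in dentate gyrus by the same edgeR test. Their median log2 fold change was -0.02. Of all genes 11.2% were higher and 10.9% lower, but the list was not matched to all genes in level. The guanine nucleotide exchange factor Vav3 was higher by 1.01 (SE 0.12), the kinases Mapk3 by 0.56 (SE 0.08) and Ptk2b by 0.44 (SE 0.07), and the lipid kinase Pik3cb by 0.32 (SE 0.09). The inhibitory G protein subunits Gnai1 and Gnao1 were lower (-0.61, SE 0.10 and -0.30, SE 0.07). So were Elmo1, a Rac activator (-0.74, SE 0.11), the G protein regulator Rgs4 (-0.72, SE 0.07), the kinase Pak1 (-0.46, SE 0.07) and the receptor kinase Adrbk2 (-0.44, SE 0.08). Of 31 other chemokines and receptors tested, 0 were higher and 1 was lower (median -0.08), fewer than those shares of all genes. That was Ackr2, another scavenging receptor, at 0.161 against 0.871 ± 0.130 CPM (SD, n = 3), or -2.42 on the log2 scale (SE 0.44). Ackr2 was itself very low in dentate gyrus. In wild-type Ammon's horn, Cxcl1 (0.0861 CPM) and Ccl5 (0.0725 CPM) were lower still. The SEs of their log2 fold changes in dentate gyrus were 0.998 and 1.26. Such genes could hardly be called. This list summed to 726 to 733 CPM in the wild-type libraries and the relay list to 4291 to 4534 CPM. Their shares of calls were thus not taken at like levels.

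Cell type markers, among them those of known sources of Cxcl12, were read beside the dentate gyrus values. Over all genes tested, 11.2% were called higher and 10.9% lower in dentate gyrus, with a median log2 fold change of -0.01. Granule cell markers summed to 1093 CPM in dentate gyrus and 207 to 248 CPM in the wild-type Ammon's horn libraries. Of 11 adult neurogenesis markers, 7 were higher and 1 lower (median 1.02, 192 CPM in sum against 48.2 to 70.5). Of 10 meningeal fibroblast markers, 9 were higher and 0 lower (median 1.08, 196 CPM against 92.6 to 97.8). Of 8 Cajal-Retzius markers, 3 were higher and 1 lower (median 0.59, 105 CPM against 91.2 to 96.1). Endothelial markers summed to 328 CPM against 342 to 360, with 1 of 12 higher and 2 lower. Mural cell markers summed to 312 CPM against 259 to 287, with 3 of 10 higher and 2 lower. Other lists were lower in dentate gyrus. Of 9 interneuron markers, 0 were higher and 7 lower (median -0.59, 589 CPM against 750 to 812). All 8 oligodendrocyte markers were lower (median -1.54, 1516 CPM against 4331 to 4510). Of 10 microglial markers, 0 were higher and 4 lower (median -0.33, 456 CPM against 503 to 557). Of 8 astrocyte markers, 0 were called (median 0.12, 4158 CPM against 3365 to 4067). Of 10 choroid plexus markers, 9 had positive values and 0 were called (median 1.21, 275 CPM against 30.9 to 160). None of these markers was at 0 in all libraries. Their part in the Cxcl12 values was not tested.

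In the knockout fit, 50.5% of all genes tested had positive values, with a median log2 fold change of 0.0015, and 0.0745% were called. Of all genes, 6.44% were lower in the knockout with no overlap of the libraries. Microglial markers had negative values in 10 of 10 (median -0.21) and none passed. They summed to between 475 and 493 CPM against 503 to 557 in wild-type Ammon's horn. Oligodendrocyte markers had negative values in 8 of 8 (median -0.21, 3709 to 3969 CPM in sum against 4331 to 4510). Of these 1 was called, Cldn11, a tight junction gene of myelin, at -0.34 with an adjusted p = 0.0457 (edgeR), named after its value was seen. With limma-voom or exon-bin sums 0 of the 8 were called. The mitochondrial share of gene counts was 13.4%, 14.1% and 11.1% in the knockout libraries and 10.6%, 10.9% and 10.4% in the wild-type ones. Endothelial, mural, meningeal and Cajal-Retzius lists had medians of -0.03, -0.09, 0.01 and 0.11, with none called. All 10 choroid plexus markers had positive values (median 1.76, 29.2 to 806 CPM in sum against 30.9 to 160), again with none called. Their part in the values of Cxcr4 and Ackr3 was not tested.

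Genes with the most similar pattern were taken by Pearson correlation of log2 CPM over all 7 libraries, as a description, among 11896 protein-coding genes of at least 5 CPM (11897 for Cxcr4). For Cxcl12 these were Pnck (r = 0.995), Gbp8 (0.986), Lmo2 (0.984), Tm7sf3 (0.983) and Filip1 (0.981). For Cxcr4 they were Celsr1 (0.979), Ltbp4 (0.964), Itpripl2 (0.964), Dnhd1 (0.964) and Abcc10 (0.963). For Ackr3 they were Fyn (0.976), Gm10337 (0.967), Tinagl1 (0.965), Ppp4c (0.963) and Med25 (0.962). All points share the same library scaling, and each r was picked as a highest value among many genes. Over the 6 Ammon's horn libraries the nearest to Cxcl12 were A430033K04Rik, Pnck, Wdr35, Plk1s1 and Gal3st1 (r from 0.970 to 0.987). Those nearest to Cxcr4 were Tmem203, Ltbp4, Fam32a, Sap30bp and Tex264 (0.969 to 0.985), and those nearest to Ackr3 were Tdp1, Chgb, Grb14, Acap3 and Tbc1d25 (0.970 to 0.989). Pnck and Ltbp4 thus appear in both lists of their gene, and no gene does for Ackr3.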

How the data were processed

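Libraries of poly(A) RNA were grouped by genotype and tissue as labelled. The authors deposited raw counts, not normalised, per gene and per exon bin. The submitters' processing notes list bedtools 2.17.0, TopHat2 2.0.8b, DESeq2 1.0.19 and Trim Galore 0.3.5, with mm10 as the build and no roles. Strand use in counting is not given in the sources used here. Gene-table counts were 1.70, 1.55 and 1.69 times the exon-bin sums for Cxcl12, Cxcr4 and Ackr3 (median 1.60 over 15017 genes with at least 700 counts), and 0 other gene records overlap these genes.

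The gene test was edgeR 4.0.16 (R 4.3.3) with TMM, filterByExpr and the quasi-likelihood F test, with Benjamini-Hochberg adjustment over all genes and a threshold of 0.05. The knockout fit used 6 libraries and the dentate gyrus fit all 7. Exon usage was tested with diffSpliceDGE, keeping bins that reached 10 reads in 3 or more libraries. Each SE from edgeR is the absolute log2 fold change over the square root of the F statistic. This includes the dentate gyrus values given without a test. The gene and exon-usage tests were both tried on simulated data. limma 3.58.1 and DESeq2 1.42.0 served as alternatives. Bin coordinates and sequences came from GENCODE M21. All members were named, with called genes of the pathway lists (up to 6 per list and direction, 1 of which is not reported here) and the 5 nearest genes by correlation of log2 CPM (prior count 2). Members, lists and tests were chosen with earlier results of these data known.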

Additional observations from a re-analysis of the deposited data

How the results depend on the processing

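Knockout values of the 3 genes were recomputed with RLE scaling, DESeq2, limma-voom, no low-count filter, exon-bin sums and all 7 libraries, those of the 12 tested bins with limma-voom and other read minimums, and both with each library left out. The genes were also recomputed without both choroid-rich knockout libraries, an alternative chosen after seeing the data. Of 147 such values, 139 kept direction, 8 changed sign and 0 passed the threshold (smallest adjusted p 0.416). The Cxcl12 difference ranged from -0.0135 (knockout replicate 3 left out) to 0.133 with single libraries left out. It was -0.0111 with wild-type replicate 2 left out and -0.134 without both choroid-rich libraries. With single libraries left out, usage also changed sign for Ackr3 bin 2 (-0.125 to 0.0316), Ackr3 bin 5 (-0.0276 to 0.0114), Cxcl12 bin 3 (-0.0150 to 0.205) and Cxcl12 bin 8 (-0.0181 to 0.123). Dentate gyrus values, which rest on 1 library, stayed positive: 0.79 to 0.95 for Cxcl12, 0.31 to 0.48 for Cxcr4, 0.21 to 0.41 for Ackr3 and 28.3 to 29.4 percentage points for the bin 6 share. Of 60 recounts of the lists, 7 moved by over 1.5 times, among them adult neurogenesis markers (8 to 5 called with exon-bin sums) and other chemokines (1 to 2 with limma-voom). No paired analysis was possible because the labels carry no replicate numbers.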
